A study of Mus musculus with 8 samples.

Results

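Flag-tagged full-length eIF4A2 (eIF4A2FL) was pulled down from mouse embryonic stem cells (ESCs) with an anti-FLAG M2 antibody, and the RNA recovered with it (RIP) was compared with the input RNA of the same cell line. The comparison uses 4 of the 8 libraries of the series, the 2 libraries labelled RIP and the 2 labelled input of the cells carrying Eif4a2flag. They were chosen by their labels alone, without regard to any measured value. A transcript was tested where its level reached a CPM (read count scaled to the library's gene reads) of 1 in both of these inputs. This left 11617 of 52550 gene rows, each described here as a transcript.

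The series asks which transcripts eIF4A2 binds in ESCs. Each of its 4 groups holds 2 libraries, and all 4 were made from *Eif4a2* KO ESCs grown in ES-DMEM-2i. This is a serum medium with LIF and the inhibitors CHIR99021 and PD0325901 that keeps ESCs in the naïve state. The input EV and RIP EV groups carry an empty vector (EV) and contain no Flag-tagged protein. The input eIF4A2FL and RIP eIF4A2FL groups re-express the Flag-tagged full-length protein from a transposon-based vector in clonal cells, and the study's rescue vector is named after the CAG promoter, which is broadly active. Cells were lysed 2 d after plating, and the antibody was left on the lysate for 3 h. According to the legend of the study's Western blot, 2 clones of the re-expressing line served as biological replicates. Whether the EV libraries came from separate clones is not stated there, so that p-values measure only the spread between these libraries. For the second RIP eIF4A2FL library, 1 label field names Eif4a3 while all its others name Eif4a2; it was kept as labelled.

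eIF4A2 is a DEAD-box RNA helicase and a close paralogue of eIF4A1. Within the eIF4F complex, together with the cap-binding protein eIF4E and the scaffold eIF4G, eIF4A unwinds the 5′ leader of mRNAs so that the small ribosomal subunit can bind and scan. eIF4A2 is also known as a partner of the CCR4-NOT deadenylase in repression by microRNAs. RNAs that are not read by cytosolic ribosomes include mitochondrial transcripts, which organellar ribosomes translate, small nucleolar RNAs (snoRNAs), and long noncoding RNAs held in the nucleus. A further class with its own translational control are the mRNAs of ribosomal proteins, which typically start with a C followed by a run of pyrimidines (the 5′ TOP motif) and depend on mTORC1 for initiation.

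Gene reads came to 4620862 and 6225787 in the input eIF4A2FL libraries and to 11206420 and 9976801 in the RIP eIF4A2FL libraries. Libraries were made with QuantSeq 3′ FWD, which primes on poly(A) and sequences near the 3′ end, so that read counts do not grow with transcript length by design. Reads with more than 1 alignment, which were not counted on genes, made up 44.5% and 46.1% of the reads in the inputs and 27.0% and 27.9% in the RIPs. Across the tested transcripts, log2 CPM correlated with Pearson's r = 0.958 between the inputs, 0.973 between the RIPs, and 0.894 to 0.906 between a RIP and an input (a description over 11617 transcripts, which are not independent replicates). *Gm42418*, which covers a ribosomal RNA repeat, took 9.44% of gene reads in input eIF4A2FL replicate 1, 0.0701% in input replicate 2, and 0.286% and 1.39% in the RIPs. Read shares of classes given here leave it out. Summed levels of 12 ESC markers were 6660 and 6229 CPM in the inputs and 6645 and 6878 CPM in the RIPs. Of 17 markers of fibroblasts, primitive endoderm, trophoblast, mesoderm, neural cells, and 2-cell-like cells, 4 passed the filter. All 17 together summed to 54.1 to 96.1 CPM in these 4 libraries, with *Col1a2*, *Col3a1*, *Pax6*, and *Sox17* without a read in the inputs. *Eif4a2* itself (chromosome 16, 23107444 to 23114136, plus strand) had 391 and 302 reads in the EV inputs, 401 and 430 in the eIF4A2FL inputs, and 860 and 473 in the eIF4A2FL RIPs. These tags do not check the knockout, because gene counts do not show on which side of the deletion they lie.

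RIP eIF4A2FL and its input differed in many transcripts in both directions. At an adjusted p of at most 0.05 (edgeR's quasi-likelihood test on raw counts with TMM scaling and Benjamini-Hochberg adjustment), 980 transcripts were higher in the RIP, which is 8.44% of those tested, and 949 were lower, which is 8.17%. Unadjusted p-values under 0.05 were found for 1990 and 1911 transcripts. In all 980 and 949 called transcripts both RIP libraries lay on the same side of both inputs. With 2 libraries a group the call itself favours such a separation, so it is no separate support. Protein-coding genes made up 10729 of the 11617 tested transcripts, 972 of the 980 higher ones (99.2%), and 657 of the 949 lower ones (69.2%). Of the protein-coding transcripts 9.06% were higher and 6.12% were lower. With library size alone in place of TMM, the median of all transcripts moved from 0.02 to 0.30 and the split became 1977 higher and 634 lower, so every fold change is to be read against that shift. Without RIP replicate 2 the counts were 460 and 575, and without RIP replicate 1 they were 650 and 691. In an edgeR fit that also took its spread from the 4 EV libraries only 0 and 3 transcripts passed (325 and 686 at an unadjusted p under 0.05).

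**Figure D1:**
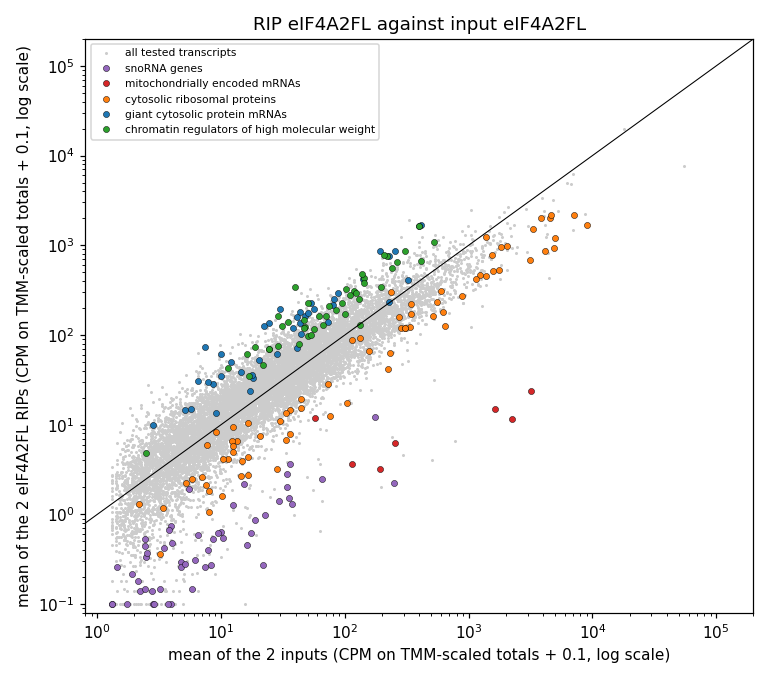
Each point is a tested transcript, with its mean CPM in the 2 input eIF4A2FL libraries (x axis) against its mean CPM in the 2 RIP eIF4A2FL libraries (y axis), both on TMM-scaled totals with 0.1 added and on log scales; the line marks equal levels. The 7 mitochondrially encoded mRNAs and the snoRNA genes lie below the line, ribosomal protein mRNAs mostly below it, and mRNAs of giant cytosolic proteins and chromatin regulators mostly above it.

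The 10 largest increases among transcripts of at least 10 CPM on average all lay in protein-coding genes, with coding lengths from 2868 bases for *Zcchc14* to 20622 bases for *Syne2*. *Celsr1*, an atypical cadherin of planar cell polarity (chromosome 15, 85898929 to 86033777, minus strand), had 2.72 and 2.23 CPM in the inputs and 23.7 and 31.8 CPM in the RIPs (all CPM of single transcripts are on TMM-scaled totals). The log2 fold change of *Celsr1* was 3.49 (SE 0.41, edgeR adjusted p = 0.00157). *Fancm*, a helicase of the Fanconi anaemia pathway, went from 7.93 and 4.97 CPM to 45.6 and 81.7 CPM (log2 fold change 3.32, SE 0.40, edgeR adjusted p = 0.0019). For both genes each RIP lay several-fold above each input, and fitted differences were 11.2-fold and 10.0-fold. *Smg1*, the kinase that phosphorylates UPF1 in nonsense-mediated decay (chromosome 7, 118131308 to 118243670, minus strand), was at 6.69 and 7.89 CPM in the inputs and 48.6 and 96.6 CPM in the RIPs (log2 fold change 3.30, SE 0.40, edgeR adjusted p = 0.00178). *Spen*, a transcriptional corepressor required for X inactivation (chromosome 4, 141467890 to 141538597, minus strand), was the most abundant of the 10, with 46.6 and 31.9 CPM against 233 and 454 CPM (log2 fold change 3.13, SE 0.39, edgeR adjusted p = 0.00205). For both, RIP replicate 2 was the higher RIP library, and both RIPs were far above both inputs. Others among the 10 were the nuclear envelope protein gene *Syne2*, the myosin *Myo9b*, and *Zcchc14*, *Ahnak2*, and *Armcx4*, with log2 fold changes of 3.14, 2.87, 3.03, 2.84, and 2.78.

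The 10 largest decreases held 5 transcripts of the mitochondrial genome, 2 snoRNA genes (*Snora30* and *Gm26397*), the antisense RNA *A330084C13Rik*, and 2 mRNAs. The mRNAs were *Sez6* (375 and 19.03 CPM in the inputs, 2.13 and 1.67 CPM in the RIPs) and the meiotic gene *Ccdc36* (564 and 21.9 CPM in the inputs, 4.65 and 4.46 CPM in the RIPs). The log2 fold changes of *Sez6* and *Ccdc36*, −6.67 and −5.998, carried standard errors of 1.16 and 1.17, and their inputs themselves differed many-fold. *Gm26397* was at 196 and 299.8 CPM in the inputs and 2.92 and 1.39 CPM in the RIPs (log2 fold change −6.82, SE 0.45, edgeR adjusted p = 6.97e-05). *A330084C13Rik* was at 43.8 and 82.0 CPM against 0.552 and 0.557 CPM (log2 fold change −6.79, SE 0.48, edgeR adjusted p = 8.28e-05). In both, the groups lay far apart, with fitted differences of 113-fold and 111-fold.

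Mitochondrially encoded RNAs were the most depleted class. Of 13 mRNAs, 7 passed the filter and all 7 were lower in the RIP, with a median log2 fold change of −5.96 against 0.02 over all transcripts. *mt-Cytb*, which encodes cytochrome b, had 1808 and 2638 CPM in the inputs and 10.0 and 12.8 CPM in the RIPs (log2 fold change −7.61, SE 0.41, edgeR adjusted p = 2.06e-05). *mt-Nd4* and *mt-Nd1*, which encode complex I subunits, fell from 2992 and 3441 CPM to 14.5 and 32.6 CPM and from 1715 and 1563 CPM to 12.2 and 17.5 CPM. These were differences of 195-fold, 137-fold, and 110-fold between the groups. The least depleted was *mt-Nd6*, the mRNA of this list that is encoded on the light strand, with 68.4 and 45.8 CPM in the inputs and 3.78 and 20.1 CPM in the RIPs (log2 fold change −2.26, SE 0.60, edgeR adjusted p = 0.031). Both ribosomal RNAs of the organelle, *mt-Rnr1* (682 and 334 CPM against 3.71 and 4.09 CPM) and *mt-Rnr2* (1200.4 and 358 CPM against 3.78 and 9.28 CPM), were called lower, as were all 4 tested of 22 tRNAs. These 4 tRNAs also had no read in either RIP EV library, and 0 were called in the interaction. The mRNAs of the organelle together took 0.692% and 0.771% of gene reads in the inputs and 0.00559% and 0.0109% in the RIPs, 88.5-fold less. The RIP EV libraries held 0.712% and 0.536%, against 0.997% and 2.10% in the EV inputs, which is 2.48-fold less. The fold change of RIP over input differed between the cell lines in 7 of these 7 mRNAs by edgeR's interaction test, in the lower direction, in which 1.83% of all tested transcripts were called.

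snoRNA genes were depleted in RIP eIF4A2FL too. These RNAs guide modification of ribosomal RNA in the nucleolus, and many are cut from introns of host genes. Of 1507 annotated genes, 52 passed the filter, 49 were called lower and 0 higher, and the median was −4.57. The filter asks for reads in the inputs only, and 7 of the 52 had no read in either RIP. With these at a bound of 3 reads over both RIPs the median was −4.38, and among the 11 genes that reached 1 CPM in all 4 libraries it was −4.20, with 11 lower. *Snora30* (chromosome 7, 127527874 to 127528003, plus strand) had 19.3 and 24.4 CPM in the inputs and 0.158 and 0.186 CPM in the RIPs, from 2 reads in each RIP. The share of reads on all 1507 annotated snoRNA genes, tested or not, was 0.0924% and 0.101% in the inputs. In the RIPs it was 0.00539% and 0.00552%, so that replicates agreed closely and the groups differed 17.8-fold. In the EV cells the RIPs held 0.158% and 0.132%, against 0.0891% and 0.145% in their inputs. By tested member the EV RIPs were uneven: 23 of the 52 had no read in either RIP EV library. Of the 5249 reads on these 52 genes in both libraries, 3 members held 40.8%. The fitted median of RIP over input in EV cells was −3.06, against −0.78 over all transcripts, and fitted values against 0 reads are no bounds. The interaction was called in 6 members in the lower and 0 in the higher direction. scaRNAs, which guide modification of spliceosomal RNAs, gave all 10 tested of 51 lower (median −4.10). Their fitted median in EV cells was −4.48, with 5 of the 10 without a read in either RIP EV library and 1 interaction call. Because the strand setting of the counting is not given, reads of an intronic snoRNA and of its host's intron cannot be told apart here. Mature snoRNAs and scaRNAs typically carry no poly(A) tail, so that priming on poly(A) counts them incompletely. Transcripts of the spliced hosts fell less within the eIF4A2FL cells: of 14 tested *Snhg* genes and *Gas5*, 3 were lower and the median was −0.58 (−0.71 to −0.52 with 1 library left out). In EV cells their fitted median was 1.23, and their share of reads was 2.21-fold higher in the RIPs than in the inputs. The interaction was called in 7 of these 14 in the lower and 0 in the higher direction, where 1.83% of all tested transcripts were called lower. *Snhg11* had 71.1 and 54.7 CPM in the inputs and 7.57 and 10.2 CPM in the RIPs (log2 fold change −2.82, SE 0.32, edgeR adjusted p = 0.00129). *Snhg15* was at 48.1 and 65.0 CPM against 70.8 and 62.9 CPM and was not called.

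Of 19 long noncoding RNAs listed as retained in the nucleus, 11 were tested and 6 were lower, with a median of −1.49. *Mir124a-1hg*, a microRNA host transcript, had the lowest value, with 63.4 and 36.2 CPM in the inputs and 3.55 and 1.49 CPM in the RIPs (log2 fold change −4.28, SE 0.48, edgeR adjusted p = 0.00122). *Malat1*, an RNA of nuclear speckles, was at 864 and 191 CPM against 17.3 and 44.8 CPM (log2 fold change −4.09). *Rian*, from the imprinted *Dlk1-Dio3* region, was at 27.2 and 25.7 CPM against 1.89 and 1.76 CPM (log2 fold change −3.84). *Meg3*, from the same region, fell less, from 658 and 835 CPM to 213 and 320.2 CPM (log2 fold change −1.49). All 4 were called, and in each the RIPs lay below both inputs. *Kcnq1ot1*, the antisense RNA of the *Kcnq1* imprinting domain, was lower too (14.4 and 6.002 CPM against 2.44 and 2.14 CPM). *Tug1*, by contrast, was at 2.97 and 3.601 CPM in the inputs and 4.73 and 4.83 CPM in the RIPs and did not pass the test. The list took 0.179% and 0.123% of gene reads in the inputs and 0.0377% and 0.0513% in the RIPs, 3.39-fold less. In EV cells it took 0.173% and 0.181% in the inputs but 0.789% and 0.980% in the RIPs, 5.00-fold more. This EV share rests on few members: of 43627 reads on the 11 tested in both RIP EV libraries, 3 members, *Meg3* and *Malat1* among them, held 96.8%. The change differed between the cell lines in 7 of 11 (6 in the lower direction, 1 in the higher). Over all annotated lincRNA genes the depletion was shallower, with 30 of 152 lower, 1 higher, and a median of −0.58. Antisense genes gave 16 of 98 lower (8 without input replicate 2), 1 higher, and a median of −0.47. Genes of the TEC class, which await experimental support, gave 38 of 65 lower and 0 higher (median −3.46, and −3.36 with 13 genes without a RIP read at their bound). In EV cells the fitted medians of these 3 classes were −2.86, −4.47, and −4.86, with 70, 52, and 37 members without a read in either RIP EV library.

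**Figure D2:**
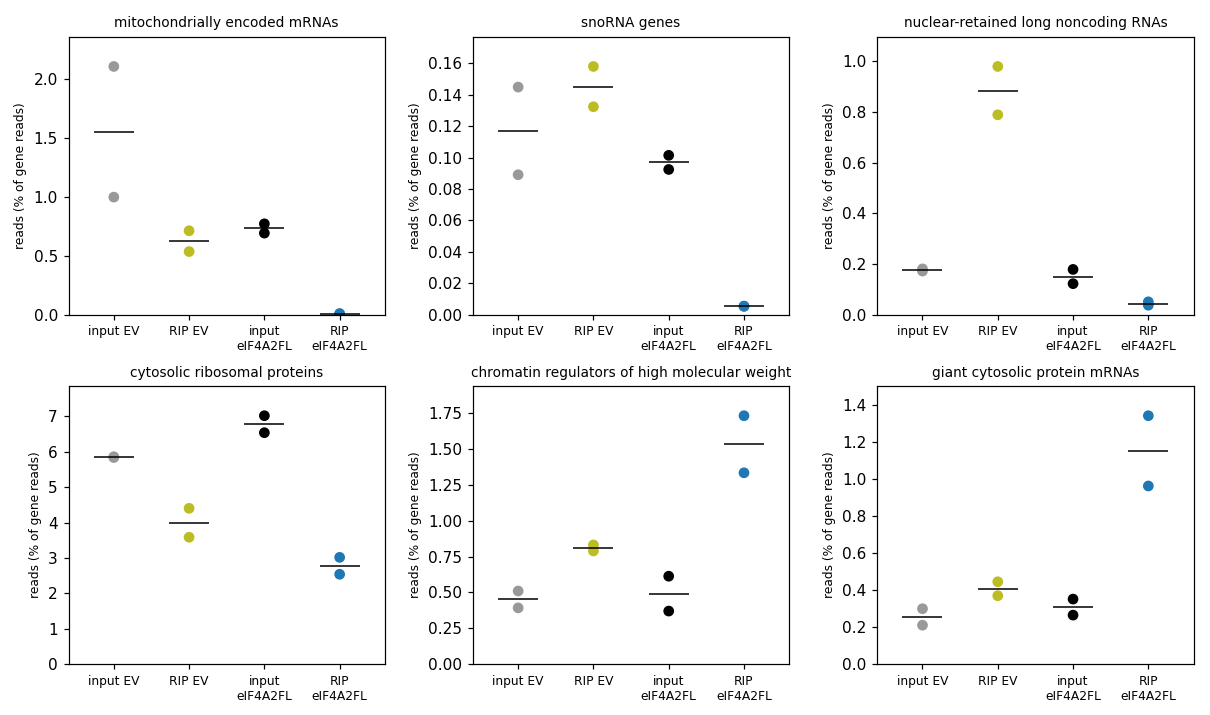
Share of gene reads, in percent without *Gm42418*, that fell on all members of 6 classes, tested or not, in each of the 8 libraries (points) and its mean per group (lines). Mitochondrial mRNAs and snoRNAs are near 0 only in the RIP eIF4A2FL group among the 4 groups shown, while long noncoding RNAs are highest in RIP EV at 0.789% and 0.980%. In RIP EV, 3 members held 96.8% of the reads on the tested long noncoding RNAs of this list.

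Cytosolic ribosomal protein mRNAs were under-recovered as a group. Of 79 genes, 74 were tested, 45 were lower, 0 were higher, and 73 lay below the median of all transcripts; their own median was −1.42. Abundant members (chosen after their values were seen) showed the same as weakly counted ones. *Rps20* was at 7105 and 11131 CPM in the inputs and 1778 and 1602 CPM in the RIPs (log2 fold change −2.43, SE 0.35, edgeR adjusted p = 0.00379), and *Rps19* was at 4689 and 5216 CPM against 1192 and 1216 CPM (log2 fold change −2.04, SE 0.30, edgeR adjusted p = 0.00402). The groups did not overlap for either, and each input was several times each RIP. *Rpl4* fell less, from 4772 and 4252 CPM to 2196 and 1854 CPM (log2 fold change −1.16, SE 0.30, edgeR adjusted p = 0.0284). The only member above the median of all transcripts was *Rps28*, at 249.7 and 224 CPM in the inputs and 374 and 228 CPM in the RIPs (log2 fold change 0.35, edgeR adjusted p = 0.458). Its sign turned without RIP replicate 1 (−0.05). The 38 genes with a mean of at least 100 CPM had a median of −1.34 with 26 lower, and the 36 below it a median of −1.45 with 19 lower. In reads, the class took 6.54% and 7.02% of the inputs and 3.02% and 2.54% of the RIPs, 2.44-fold less. The EV RIPs also held less than their inputs, with 3.58% and 4.40% against 5.84% and 5.86% (1.46-fold). The interaction was called in 12 members in the lower and 2 in the higher direction, in which 1.83% and 17.5% of all tested transcripts were called. Without RIP replicate 2, 25 members were lower. Ribosomal protein genes have many processed copies, and reads that fit a gene and its copy were not counted, so their levels are uncertain. Among processed pseudogenes of all parent genes, 100 of 326 tested were lower, 0 were higher, and the median was −1.44 (58 lower without input replicate 1).

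The starts of these mRNAs are shown because the 5′ TOP motif sits at the first transcribed bases. Each line gives 30 bases of the RefSeq annotation on GRCm38.p6, 15 before and 15 from the annotated start on the gene's strand, with a run of C and T that begins with C at the start in capitals. The first 4 are ribosomal protein genes with a long run, and the last 2, *Smg1* and *Spen*, are strongly increased mRNAs without one; all 6 were chosen after their values were seen.
Rps15a, chr7:118116133-118116162, minus strand: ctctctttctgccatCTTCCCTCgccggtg
Rps27, chr3:90213634-90213663, minus strand: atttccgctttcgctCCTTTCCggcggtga
Rpl35a, chr16:33056467-33056496, plus strand: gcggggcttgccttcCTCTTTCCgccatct
Rps10, chr17:27635230-27635259, minus strand: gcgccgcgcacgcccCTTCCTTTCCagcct
Smg1, chr7:118243623-118243652, minus strand: ggcgggcggagccgggaggcggggaagccg
Spen, chr4:141538583-141538612, minus strand: gcgccggtgggaagcgtccggcagccacag

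The 4 ribosomal protein genes shown had log2 fold changes of −2.22, −2.17, −1.88, and −1.72. *Rps10* was at 1592 and 1909 CPM in the inputs and 597 and 465 CPM in the RIPs, and *Rpl35a* at 198 and 266 CPM against 75.4 and 50.5 CPM, so that the inputs stood clearly above the RIPs in both. A RefSeq window was found for 54 of the 74 tested ribosomal protein genes. A start of C followed by at least 4 bases that are each C or T was held by 13 of these 54, and by 823 of all 32851 windows (2.51%). Annotated starts can lie off the true start by some bases, so a window without the run is no evidence that the mRNA lacks it. Within the class the medians were close, at −1.35 with 9 of 13 lower where the start was present and −1.44 with 23 of 41 lower where it was not. Outside the class, 242 protein-coding transcripts with such a start had a median of −0.01 (21 higher, 18 lower), against 0.09 over 8256 without it (775 higher, 471 lower).

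The other mRNAs of the translation machinery are given by complex. Over all tested transcripts 8.44% were higher and 8.17% lower. Among 11 genes listed as elongation and release factors, 5 were lower and 1 higher (median −0.76). The lowest log2 fold change in the list, −3.14, was that of *Tpt1*, which is itself neither an elongation nor a release factor. *Eef1b2* and *Eef1g*, the nucleotide exchange subunits of elongation factor eEF1, were at 2953 and 3009 CPM against 988 and 705 CPM and at 1434 and 1056 CPM against 357 and 347 CPM (log2 fold change −1.82 for each). *Gspt1*, which encodes the release factor eRF3, moved the other way, from 143 and 120.0 CPM to 313 and 288 CPM (log2 fold change 1.19, SE 0.27, edgeR adjusted p = 0.0165). The number lower was 3 without RIP replicate 1 and 2 without RIP replicate 2, and *Gspt1* was not called without RIP replicate 1. Of 12 tested eIF3 subunits, which form the scaffold of the 43S complex, 2 were lower and 0 higher (median −0.69; 1 lower without either RIP library in turn, 4 without input replicate 2). *Eif3h* was at 1742 and 1735 CPM against 587 and 483 CPM (log2 fold change −1.70, SE 0.28, edgeR adjusted p = 0.00589). The mRNA of the largest subunit, *Eif3a*, was at 982 and 401 CPM against 632 and 829.9 CPM and was not called, with a sign that depended on the library left out. Of 20 further initiation factors, 6 were lower and 0 higher (2 lower without RIP replicate 1, 3 without RIP replicate 2), and all 20 lay below the median of all transcripts. *Eif2s2*, the β subunit of eIF2, went from 1507 and 733 CPM to 279.8 and 364 CPM (log2 fold change −1.80, SE 0.37, edgeR adjusted p = 0.0122).

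For eIF4F and its regulators, 3 of 20 were higher (15.0%, against 8.44% of all transcripts) and 1 was lower (5.0%, against 8.17%). Their median of 0.22 ran from 0.14 to 0.32 with 1 library left out. It lay 0.20 above that of all transcripts, less than its replicate spread of 0.32 (the spread of the class median between replicates, RIP and input combined). The scaffold mRNA *Eif4g1* was higher, at 377 and 197 CPM against 858 and 1637 CPM (log2 fold change 2.12, SE 0.41, edgeR adjusted p = 0.00971), and so was *Eif4g3*, at 49.3 and 28.1 CPM against 166 and 144 CPM (log2 fold change 2.01, SE 0.33, edgeR adjusted p = 0.00527). *Eif4enif1*, which encodes the eIF4E transporter 4E-T, was higher too (log2 fold change 1.42). The mRNA of the cap-binding protein, *Eif4e*, was lower, from 201 and 176 CPM to 83.2 and 75.1 CPM (log2 fold change −1.25, SE 0.26, edgeR adjusted p = 0.0132). The helicase mRNAs did not pass: *Eif4a2* was at 99.3 and 73.7 CPM in the inputs and 67.8 and 43.9 CPM in the RIPs (log2 fold change −0.63, edgeR adjusted p = 0.179). *Eif4a1* was at 357 and 391 CPM against 583 and 311 CPM (log2 fold change 0.26, edgeR adjusted p = 0.625), with the sign turning without RIP replicate 1. For *Eif4a2* both RIPs lay below both inputs, and for *Eif4a1* the groups overlapped. Of 20 cytosolic aminoacyl-tRNA synthetases 1, *Aars*, was called, from 102 and 106 CPM to 273 and 271 CPM (log2 fold change 1.39; 2 were called without input replicate 1). Of 39 mTOR complex subunits and regulators 7 were higher and 1 lower (2 and 0 without RIP replicate 1, 4 higher without RIP replicate 2, 2 lower without input replicate 1; median 0.35). Those higher included *Rictor* and *Rptor*, which define mTORC2 and mTORC1, *Tsc2*, and *Flcn*, with log2 fold changes of 1.50, 1.39, 1.46, and 1.47. *Mtor* itself was higher, at 56.0 and 59.7 CPM against 110.1 and 149 CPM (log2 fold change 1.16, SE 0.28, edgeR adjusted p = 0.0211). The 1 lower was the small GTPase *Rraga*, at 706 and 678 CPM against 262 CPM in each RIP.

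mRNAs for regulators of mRNA fate were mixed, where 8.44% of all tested transcripts were called higher and 8.17% lower. Of 12 tested members of the microRNA machinery 4 were higher, 0 were lower, and the median was 0.80. *Tnrc6c*, a GW182 scaffold that recruits CCR4-NOT, went from 56.0 and 43.6 CPM to 278 and 270.3 CPM (log2 fold change 2.46, SE 0.28, edgeR adjusted p = 0.00141). The nuclease mRNA *Dicer1* went from 178 and 142 CPM to 421 and 631 CPM (log2 fold change 1.72). *Drosha* and *Tnrc6a* followed with 1.27 and 1.06. The count was 2 without RIP replicate 2 or without input replicate 2 and 7 without input replicate 1. Nonsense-mediated decay factors gave 4 higher and 1 lower of 17: besides *Smg1* these were the helicase *Upf1* (38.4 and 37.6 CPM against 139.5 and 149 CPM, log2 fold change 1.93), *Smg5*, and *Nbas*. The lower one was *Magoh* of the exon junction complex (log2 fold change −1.37; 0 lower without RIP replicate 2, 2 without either input). Of 16 CCR4-NOT and deadenylation genes the scaffold *Cnot1* was higher (131 and 83.2 CPM against 245 and 231 CPM) and the catalytic subunit *Cnot6l* lower (19.1 and 19.9 CPM against 7.33 and 9.28 CPM). Of these, 0 were called in either direction without RIP replicate 1, RIP replicate 2, or input replicate 2. Splicing factors leaned down, with 3 of 12 SR protein mRNAs lower and 1 higher and 4 of 18 hnRNP mRNAs lower and 0 higher (1 and 1 lower without RIP replicate 1, and 0 and 1 without RIP replicate 2). *Srsf1* was at 979 and 943 CPM against 437 and 241 CPM. DEAD and DEAH box helicases, the family of eIF4A2, gave 6 higher (11.8%) and 0 lower of 51, led by *Dhx8* at 47.1 and 25.7 CPM against 136 and 209 CPM. Their median of 0.27 ran from 0.22 to 0.74 with 1 library left out. It lay 0.26 above that of all transcripts, less than its replicate spread of 0.42. For nonsense-mediated decay factors the median lay 0.28 above that of all transcripts, less than its replicate spread of 0.43.

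The classes recovered most above their abundance were the lists drawn up of genes known to encode very large proteins. Of 48 chromatin regulators of high molecular weight, 46 were tested, 29 were higher, 0 were lower, and 45 lay above the median of all transcripts. The class median was 1.38. The histone methyltransferase *Kmt2d* rose from 34.7 and 23.0 CPM to 138 and 184 CPM (log2 fold change 2.49, SE 0.32, edgeR adjusted p = 0.0023). The remodeller *Chd7* went from 56.2 and 45.3 CPM to 159 and 299.98 CPM (log2 fold change 2.18, SE 0.35, edgeR adjusted p = 0.00495). The exception was *Setd1b*, another methyltransferase, at 121 and 143 CPM against 137 and 121 CPM, a log2 fold change of −0.03. Its sign turned with library size alone (0.26). The counts of members higher ran from 20 without RIP replicate 2 to 42 without input replicate 1. The 42 listed mRNAs of giant cytosolic proteins were all tested, 32 were higher, 0 were lower, and all 42 lay above the median of all transcripts, with a class median of 1.73. *Herc2* and *Herc1*, giant ubiquitin ligases, went from 36.4 and 23.3 CPM to 120.4 and 265 CPM and from 35.7 and 8.57 CPM to 98.5 and 155 CPM (log2 fold changes 2.70 and 2.54). The cytolinker *Plec* went from 10.7 and 9.09 CPM to 42.6 and 79.8 CPM (log2 fold change 2.63). *Huwe1*, a ubiquitin ligase on both lists, went from 456 and 333 CPM to 1572 and 1747 CPM (log2 fold change 2.07). At the low end stood *Acly*, the shortest of these examples with a coding length of 3303 bases, at 213 and 241 CPM against 218 and 248 CPM (log2 fold change 0.04).

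**Figure D3:**
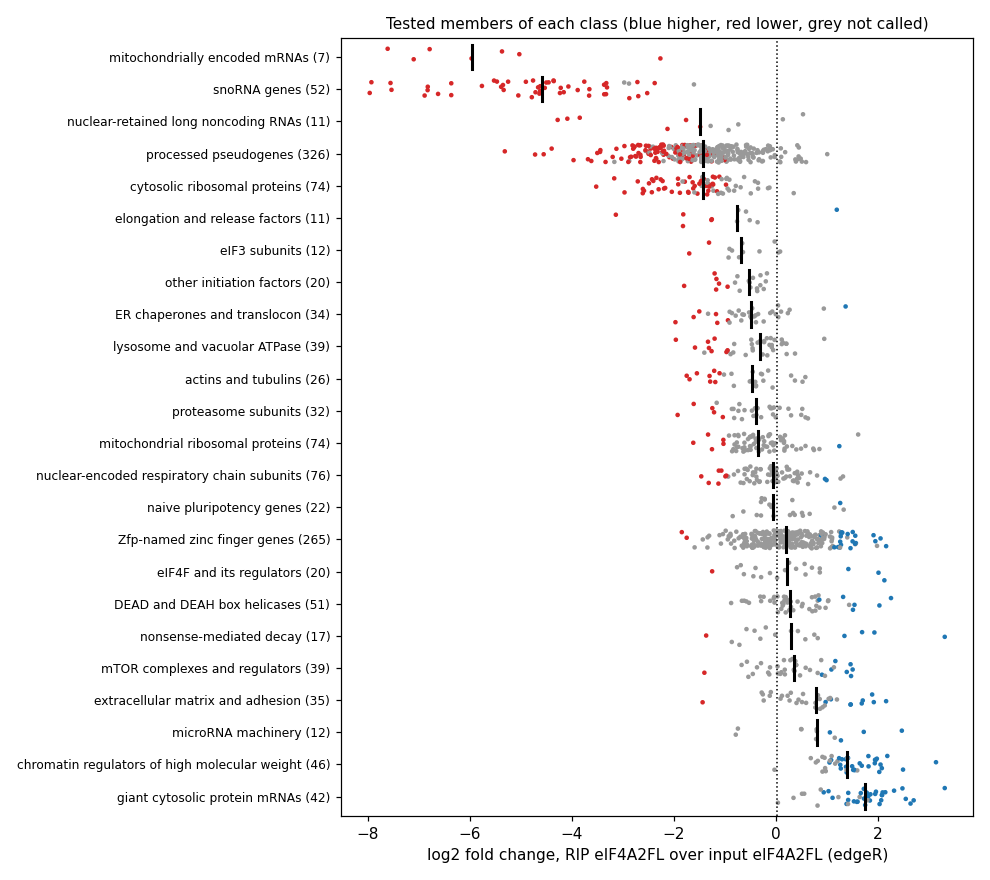
Each point is a tested member of the class named on the left (number tested in brackets), placed by its log2 fold change of RIP eIF4A2FL over input eIF4A2FL; blue members were called higher, red lower, and grey not called, and bars mark class medians. Medians run from −5.96 for mitochondrial mRNAs to 1.73 for giant cytosolic protein mRNAs.

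In reads, chromatin regulators took 0.613% and 0.370% of the inputs and 1.33% and 1.73% of the RIPs (3.12-fold more). Giant cytosolic protein mRNAs took 0.351% and 0.264% against 0.961% and 1.34% (3.74-fold more). The EV libraries moved the same way with a smaller ratio, from 0.510% and 0.392% to 0.831% and 0.789% for chromatin regulators (1.80-fold) and from 0.299% and 0.210% to 0.444% and 0.369% for giant proteins (1.60-fold). The change differed between the cell lines in the higher direction in 4 of 46 and in 8 of 42 members, where 17.5% of all tested transcripts were called. Of the members, 63.0% and 76.2% were called higher, against 8.44% of all transcripts and 51.2% in the longest of 20 coding-length bins. The lists were drawn up of large proteins with earlier results known, so a share above 8.44% is no separate support. No test of the lists was made. Extracellular matrix and adhesion mRNAs gave 9 higher and 1 lower of 35 tested (median 0.77). The higher ones were again long, such as the cadherin *Fat1* (27.0 and 12.004 CPM against 86.1 and 85.8 CPM, log2 fold change 2.16), the laminin *Lama5* (12.1 and 9.60 CPM against 45.4 and 36.2 CPM, 1.92), and perlecan, *Hspg2* (94.6 and 55.9 CPM against 310.4 and 244 CPM, 1.88). The 1 lower was the short matricellular gene *Sparc*, at 470.4 and 436 CPM against 158 and 177 CPM (log2 fold change −1.44). Without RIP replicate 2, 5 were higher. C2H2 zinc finger genes named *Zfp* lay close to all transcripts, with 21 higher and 2 lower of 265 and a median of 0.20 (7 higher without RIP replicate 2; 6 and 7 lower without input replicates 1 and 2).

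The recovery of mRNAs rose with the length of their coding sequence; the finer bins, the untranslated length, and the splits by level and library were chosen after the first values were seen. Over 10722 nuclear protein-coding genes, Spearman's rank correlation of the log2 fold change was 0.483 with coding length, 0.315 with the length of the longest transcript, and −0.003 with the untranslated length (descriptions across genes, which share the 4 libraries, with no p). From the shortest to the longest quintile of coding lengths the medians were −0.29, −0.23, −0.05, 0.25, and 0.80. The shortest quintile (111 to 744 bases) held 29 higher and 254 lower transcripts, and the longest (2520 to 23151 bases) 651 higher and 13 lower. In a finer split into 20 bins, the genes of 4716 bases or more had a median of 1.20, with 275 of 537 higher (51.2%) and 1 lower. Within each quintile, genes with a longer untranslated part had slightly lower medians than those with a shorter one, from −0.40 against −0.20 in the shortest quintile to 0.78 against 0.84 in the longest. The order was seen at low and high levels: in the quintile of genes lowest in the EV inputs, which did not enter the fit, the medians of the longest and shortest coding sequences were 0.88 and −0.33, and in the quintile of the most abundant genes 0.50 and −0.49.

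**Figure D4:**
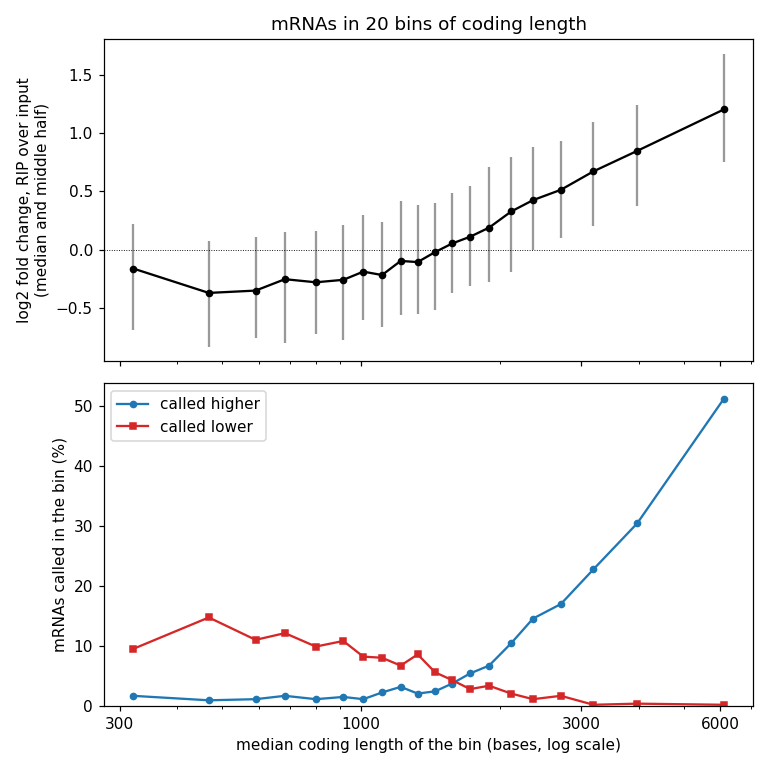
Protein-coding genes in 20 bins of equal size by coding length (x axis, bases, log scale). The upper panel gives the median log2 fold change of RIP eIF4A2FL over input eIF4A2FL with the interquartile range as a bar, and the lower panel the percent called higher (blue) and lower (red); the last bin has a median of 1.20 and 51.2% higher.

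Read shares by library showed the same order. The longest quintile took 14.8% and 12.1% of protein-coding reads in the eIF4A2FL inputs and 23.3% and 25.5% in the RIPs, and the shortest 28.5% and 31.8% against 23.0% and 22.1%. In EV cells the longest quintile took 13.2% and 11.4% in the inputs and 18.3% and 17.1% in the RIPs, and the shortest 30.1% and 33.8% against 20.6% and 22.9%. The direction was thus the same in both cell lines. In the longest quintile the RIP eIF4A2FL libraries were above all 6 others, and in the shortest the RIPs of both cell lines overlapped. Interaction calls in the higher direction did not rise with length, at 419, 359, 359, 383, and 381 from the shortest to the longest quintile. In the lower direction they were 36, 34, 35, 30, and 15, where 17.5% and 1.83% of all tested transcripts were called higher and lower. GC content went apart: the quintile of genes with the lowest GC took 20.7% and 17.7% in the eIF4A2FL inputs and 15.9% and 16.0% in the RIPs, whereas in EV cells it rose from 19.5% and 18.2% to 25.5% and 25.1%. Against other genes of their own length bin (of 20), chromatin regulators and giant protein mRNAs had medians 0.25 and 0.53 higher. The replicate spreads of their class medians were larger, at 0.79 and 0.65. The longest bin, from 4716 to 23151 bases, has a median of 6105 bases, and these lists have medians of 6874.5 and 9894 bases. The bins therefore do not take out all of the length, and an excess beyond length was not tested. MicroRNA machinery, *Zfp* genes, and DEAD and DEAH box helicases were at 0.03, −0.02, and 0.00. Extracellular matrix and adhesion mRNAs, nonsense-mediated decay factors, and aminoacyl-tRNA synthetases were at −0.16, −0.24, and −0.22. Ribosomal proteins, elongation factors, and eIF3 subunits stayed lower, with values of −1.10, −1.28, and −0.70 (log2).

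Several classes of housekeeping mRNAs had medians below that of all transcripts, of which 8.44% were higher and 8.17% lower. Abundant mRNAs in general were recovered less: the quintile highest in the EV inputs had a median of −0.29, with 15.9% lower and 4.94% higher. Spearman's rank correlation of the log2 fold change with the level in the EV inputs was −0.19 over 10722 genes. Whether these classes depart from other genes of their level was not tested. Of 26 actin, tubulin, and related genes 8 were lower and 0 higher (5 lower without RIP replicate 1, 2 without RIP replicate 2; median −0.47), among them 4 α-tubulins such as *Tuba1c*, at 4036 and 4592 CPM in the inputs and 1239 and 1429 CPM in the RIPs (log2 fold change −1.69). Genes of the lysosome and its proton pump gave 8 lower and 0 higher of 39 (1 lower without RIP replicate 1, 3 without RIP replicate 2), led by the pump subunit *Atp6v0e* (125 and 168 CPM against 36.5 and 38.9 CPM, log2 fold change −1.96). ER chaperone and translocon genes gave 6 lower and 1 higher of 34 (3 lower without RIP replicate 2). The translocon pore *Sec61a1* was at 1154 and 2961 CPM against 448 and 602 CPM, and its partners *Sec62* and *Sec63* were lower as well, and the chaperone *Creld2* was higher at 16.3 and 16.8 CPM against 42.1 and 43.3 CPM. Proteasome subunits gave 5 lower of 32 (3 and 2 without RIP replicates 1 and 2, 8 without input replicate 1) and cytosolic and mitochondrial chaperones 6 of 22 (1 and 3 without RIP replicates 1 and 2), with 0 higher in either. *Psma2* was at 1001 and 1832 CPM against 437 and 489.9 CPM. Among 185 solute carriers 10 were lower and 3 higher (median −0.25; from 4 lower without RIP replicate 2 to 19 without input replicate 1). The share lower, 5.41%, was under the 8.17% of all transcripts. Of the 8 CCT chaperonin subunits none passed the test.

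Nuclear-encoded mitochondrial genes did not follow the mitochondrially encoded ones. Of 76 respiratory chain subunits 7 were lower and 2 higher with a median of −0.07. They took 2.30% and 2.67% of gene reads in the inputs and 2.62% and 2.57% in the RIPs. *Ndufs7* was higher, at 71.3 and 115 CPM against 187 and 185 CPM (log2 fold change 0.99), and *Ndufb11* lower, at 67.6 and 115 CPM against 33.5 and 32.8 CPM (log2 fold change −1.46). Leaving out either of the RIP libraries left 1 member lower and 0 higher. In EV cells their share fell from 2.47% and 2.46% in the inputs to 0.854% and 1.11% in the RIPs. In the interaction 17 of the 76 were called higher and 0 lower, and 17.5% of all tested transcripts were called higher. Mitochondrial ribosomal proteins gave 5 lower and 1 higher of 74 (2 and 1 lower without RIP replicates 1 and 2, 9 without input replicate 1), a median of −0.35, and a value of −0.08 against other genes of their coding-length bin. By comparison, *mt-Nd1* and *mt-Nd4*, encoded in the organelle, had log2 fold changes of −6.78 and −7.10.

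Pluripotency genes stayed near their abundance. Of 22 naïve pluripotency genes 1 was higher and 0 were lower (median −0.05; 5 higher without input replicate 1, 0 without input replicate 2). The 1 higher was *Zfp42*, which encodes the naïve marker REX1, with 143 and 70.0 CPM in the inputs and 254.6 and 253.8 CPM in the RIPs (log2 fold change 1.26, SE 0.35, edgeR adjusted p = 0.035). *Klf4* spread widely, at 268 and 84.9 CPM in the inputs and 193 and 689.8 CPM in the RIPs, and did not pass (edgeR adjusted p = 0.154). Among 12 tested formative and primed genes the growth factor mRNA *Fgf15* and *Tead2*, a transcription factor of the Hippo pathway, were lower, *Tead2* from 161 and 233 CPM to 78.5 and 74.8 CPM (log2 fold change −1.36). The count lower was 1 without RIP replicate 2 or input replicate 1, where 2 were higher without the latter, and 3 without either of the others. Of the 19 transcripts of the study's RT-qPCR panel 9 were higher and 1, *Meg3*, was lower (median 0.68); the panel was chosen by the study on these samples and is not independent evidence of a direction. Histone mRNAs split: of 27 replication-dependent histone genes 2 were higher and 4 lower (4 and 1 without input replicate 1), with *Hist1h3d* at 62.9 and 57.8 CPM against 5.60 and 2.60 CPM (log2 fold change −3.86, SE 0.40, edgeR adjusted p = 0.000793). The sign of their median (−0.14) turned without input replicate 1 (0.51). These mRNAs end in a stem-loop without poly(A), so that priming on poly(A) counts them incompletely.

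The EV cells give the background of the immunoprecipitation, but their RIP libraries differed in make-up from the others. Reads on no gene were 45.8% and 29.7% in RIP EV, 13.1% and 17.6% in the EV inputs, and 3.30% and 4.13% in RIP eIF4A2FL. *Gm42418* took 13.6% and 9.36% of gene reads in RIP EV and 10.5% and 1.83% in the EV inputs. Genes with a read numbered 7016 and 9473 in RIP EV, against 18530 and 16649 in RIP eIF4A2FL. EV values are therefore no like-for-like control. Within the EV cells, edgeR called 0 transcripts higher and 0 lower in RIP over input (447 and 2935 at an unadjusted p under 0.05). Of the tested transcripts, 2583 had no read in either RIP EV library, against 34 in the RIP eIF4A2FL libraries. The change of RIP over input differed between the cell lines for 2031 transcripts in the higher direction (17.5%) and 213 in the lower (1.83%). This test rests on the 2 RIP EV libraries with 2044853 and 3345151 gene reads. In it, 0 transcripts passed in either direction when any library other than a RIP EV library was left out. Among the leading transcripts, *Mtor* had 313 and 142 reads in the EV inputs and 0 and 1 in the RIP EV libraries, and *Zcchc14* 74 and 38 reads in the inputs and 0 in both. *Smg1* had 69 and 26 reads in the EV inputs and 1 and 131 in the RIP EV libraries, and *Spen* 173 and 52 reads against 0 and 103. The interaction was called for *Mtor* and *Zcchc14* but not for *Smg1* and *Spen* (edgeR adjusted p = 0.571 and 0.308), whose RIP EV libraries differed widely from each other.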

How the data were processed

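Raw gene read counts were deposited by the authors for 8 QuantSeq 3′ FWD libraries, 4 of which (RIP eIF4A2FL replicates 1 and 2 and input eIF4A2FL replicates 1 and 2) enter the main comparison. The submitters' processing notes name STAR 2.5.3a, HTSeq 0.11.2, and the mm10 build. Neither the annotation release nor HTSeq's strand mode could be read from these sources. Whether reads of overlapping and antisense genes were kept apart is therefore not known. Reads with several alignments were not counted. HTSeq summary rows were dropped, and transcripts reaching a CPM of 1 in both eIF4A2FL inputs were fitted with edgeR 4.0.16 (quasi-likelihood test, TMM factors, R 4.3.3) and called at a Benjamini-Hochberg adjusted p of at most 0.05. The biological coefficient of variation was 26.0%. With 2 libraries a group, an exact permutation test of a single value cannot go below p = 0.333 (two-sided), so no single-value test was made. Differences between cell lines were tested as an interaction over all 8 libraries. The fit was tested on simulated data. Coordinates, classes, and coding lengths came from GENCODE vM21 on GRCm38, in which 52403 of 52550 gene IDs were found, and start windows from RefSeq on GRCm38.p6; coding length is that of the longest coding sequence. DESeq2 1.42.0 and limma 3.58.1 (voom) were alternatives. Named transcripts were the 10 largest called changes per direction with a mean of at least 10 CPM and both RIPs beyond both inputs, up to 4 called members per class and direction together with each class's extremes, and 8 fixed transcripts. The members and lists were chosen with earlier results of these data known, and the transcripts named for a start sequence, as well as abundant ribosomal protein mRNAs, after their values were seen. Of the 10 largest increases, 1 is not reported here. The Flag-eIF4A2PTC RIP was not analysed here. The counts cover reads without molecular identifiers.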

Additional observations from a re-analysis of the deposited data

Results flagged for a closer look

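Among the transcripts with the largest changes and those named in any case, the change of RIP over input differed between the eIF4A2FL and EV cells by edgeR's interaction test for the 13 given here (log2 change in eIF4A2FL cells less that in EV cells). The difference was positive for *Celsr1* (10.08), *Syne2* (9.668), *Zcchc14* (12.18), and *Mtor* (8.97). The first 3 had 0 reads in both RIP EV libraries and *Mtor* had 0 and 1, so these fitted values depend on the prior count and are no bounds. It was negative for *mt-Cytb* (−4.874), *mt-Nd4* (−4.68), *mt-Nd1* (−5.588), *mt-Rnr1* (−5.488), and *mt-Rnr2* (−6.424), for the snoRNA gene *Gm26397* (−4.804), and for the long noncoding RNAs *Meg3* (−4.175), *Rian* (−4.523), and *Malat1* (−5.406). These 9 had reads in both RIP EV libraries, for example *mt-Cytb* with 1177 and 1881 reads, *Meg3* with 10485 and 23180, and *Malat1* with 2244 and 4710. No transcript passed the interaction test with the replicate block, or when any 1 library other than a RIP EV library was left out.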

How the results depend on the processing

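The number of calls depended on the settings. Against 980 higher and 949 lower transcripts, library size alone gave 1977 higher, the fit of all 8 libraries 0 and 3, and leaving out 1 library 460 to 1385 higher and 575 to 1096 lower. DESeq2 gave 1027 and 1105, voom 960 and 994, and no filter on low counts 1408 and 1099. With the replicate block the counts were 786 and 726 (757 and 715 shared with the reported calls). The replicate differences of input and RIP correlated at 0.02 across transcripts, so that no effect shared by a RIP and its input was seen. This correlation cannot settle whether the samples are paired by clone. Of 200 called named transcripts, 94 stayed past the threshold under every alternative other than the 8-library fit, which lost 197. Class medians less that of all transcripts ranged, with 1 library left out, from −1.66 to −1.31 for ribosomal proteins, −1.06 to −0.67 for elongation factors, −1.82 to −1.27 for nuclear long noncoding RNAs, −4.89 to −4.52 for snoRNA genes, and −1.58 to −1.37 for processed pseudogenes. The snoRNA value of −4.59 was −4.49 with 1 CPM in all 4 inputs of the series, −4.23 with 1 CPM in all 4 libraries, and −4.09 with no filter. The pseudogene value of −1.45 was −1.30 with 1 CPM in all 4 libraries or filterByExpr and −0.96 with no filter. Replication-dependent histones, at −0.15, reversed to 0.050 with 1 CPM in all inputs of the series, 0.14 in all 4 libraries, 0.63 with filterByExpr, 0.69 with no filter, and 0.46 without input replicate 1; the filters change which members enter. The interaction counts of 2031 and 213 ran from 0 to 5767 and from 0 to 1333 with 1 library left out, were 0 and 0 with the replicate block, and the lower count was 620 with DESeq2. The length difference of 1.09 between the longest and the shortest quintile was 0.72 by longest transcript. The difference of −0.15 for 5′ TOP starts, with ribosomal protein genes included, was −0.33 with a run of 8. Without these genes, the 68 transcripts with a run of 8 had a median of 0.141 (6 higher, 6 lower). The 8430 without it had a median of 0.085 (790 higher, 483 lower). The sign of uncalled transcripts changed with the library left out: values ran from −0.26 to 0.62 for *Eif4a1*, −4.44 to 3.37 for *Gm42418*, −0.047 to 0.64 for *Rps28*, −0.43 to 0.87 for *Eif3a*, −0.59 to 0.39 for *Eif2b4*, −1.26 to 0.041 for *Tarbp2*, −0.076 to 0.13 for *Acly*, −0.033 to 1.1202 for *Eomes*, and −0.14 to 0.094 for *Setd1b*. It also changed with library size alone (*Eif2b4* 0.12, *Setd1b* 0.26) and, for *Acly*, with 1 CPM in all 4 libraries (−0.0080) and filterByExpr (−0.0022). The cause of these changes was not tested. Counts thinned to the smallest library gave 888 and 882 calls.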

Other observations

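The filter on the inputs leaves out transcripts that were scarce in an input but present in the RIP. Of 40933 untested gene rows, 37 reached 5 CPM in both RIP eIF4A2FL libraries, and 27 of these were called higher and 0 lower by edgeR when no filter was applied. *Zfp646* was at 5.45 and 0.686 CPM in the inputs and 13.9 and 17.5 CPM in the RIPs, *Robo1*, an axon guidance receptor, at 0.743 and 1.54 CPM against 9.70 and 10.5 CPM, and *Fam83h* at 1.98 and 1.03 CPM against 10.8 and 8.45 CPM. The kinase *Mink1* was at 2.48 and 0.857 CPM in the inputs and 7.49 and 17.7 CPM in the RIPs. In these 4 the RIPs lay above both inputs; they were chosen after their values were seen.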
